A study of Mus musculus with 8 samples.

Results

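Astrocyte genes of the mouse visual cortex were compared between the deprived and the non-deprived hemisphere after removal of 1 eye. The genes were taken by name: Gfap, Aqp4, Slc1a2, Slc1a3, Glul, Gja1, S100b and Aldoc. All probe sets annotated to a single one of these symbols were used, which gave 11 of 12422 probe sets and covered 7 of the 8 genes, out of 8251 genes with such a probe set. No probe set carried the symbol Slc1a3, so this glutamate transporter was not analysed here. There were 4 arrays of deprived cortex, from the hemisphere contralateral to the enucleated eye, and 4 of non-deprived cortex, from the ipsilateral hemisphere. All samples came from wild-type C57Bl6 mice that lost 1 eye at postnatal day 20 and were killed 4 days later at postnatal day 24, and no array held cortex of unoperated mice. Per the labels 4 mice were used, whereas the design text speaks of pooled samples, so it is unclear whether an array held 1 animal or a pool. All p-values therefore set a difference between hemispheres against the spread between these samples, and that spread could be technical rather than between animals.

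Astrocytes are the glial cells that take up glutamate and potassium after synaptic activity, supply neurons with glutamine and lactate, and wrap blood vessels with their end feet. In rodent visual cortex they mature during the weeks after eye opening, and after injury they raise intermediate filament proteins in a state called reactive. The genes described here cover these roles: Gfap encodes the intermediate filament of the astrocyte cytoskeleton, Aqp4 the water channel of the end feet, Slc1a2 the glutamate transporter GLT-1, Glul glutamine synthetase, Gja1 the gap junction protein connexin 43, S100b a calcium-binding protein and Aldoc the brain form of aldolase. Because the RNA came from whole tissue, fewer astrocytes and less RNA per astrocyte cannot be told apart in any of the values below.

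None of the 11 probe sets had a difference between hemispheres that passed an adjusted p of 0.05 in limma, with or without the sample number as a block. Each was measured as a signal, a linear intensity in arbitrary units, and all 11 passed the filter on dim probe sets, which lay at a signal of about 110. Each of the 7 genes thus gave a signal above the filter, and so did 10 neuron, 9 oligodendrocyte and 8 microglia markers. Differences are given as deprived minus non-deprived on the scale of log2(signal + 15.3). Of the 11 differences, 6 lay above 0 and 5 below 0, with a median of 0.02, and the median of all 7453 probe sets tested was also 0.02. With the brightest probe set per gene, 4 of the 7 genes lay below 0 and the median was -0.06. In limma, adjusted over all of these, 0 of the 11 passed an adjusted p of 0.05, each at adjusted p = 0.996, where the share called among all probe sets was 0%. At an unadjusted p under 0.05 limma had 0 of the 11, against 2.67% of all probe sets. With the sample number as a block, limma also called 0 of the 11, and 3 of them, Gja1 100064_f_at, S100b and Glul 94852_at, had an unadjusted p under 0.05, where all probe sets had 7.03%. The groups overlapped for all 11, where 2.05% of all probe sets had groups that did not overlap.

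**Figure D1:**
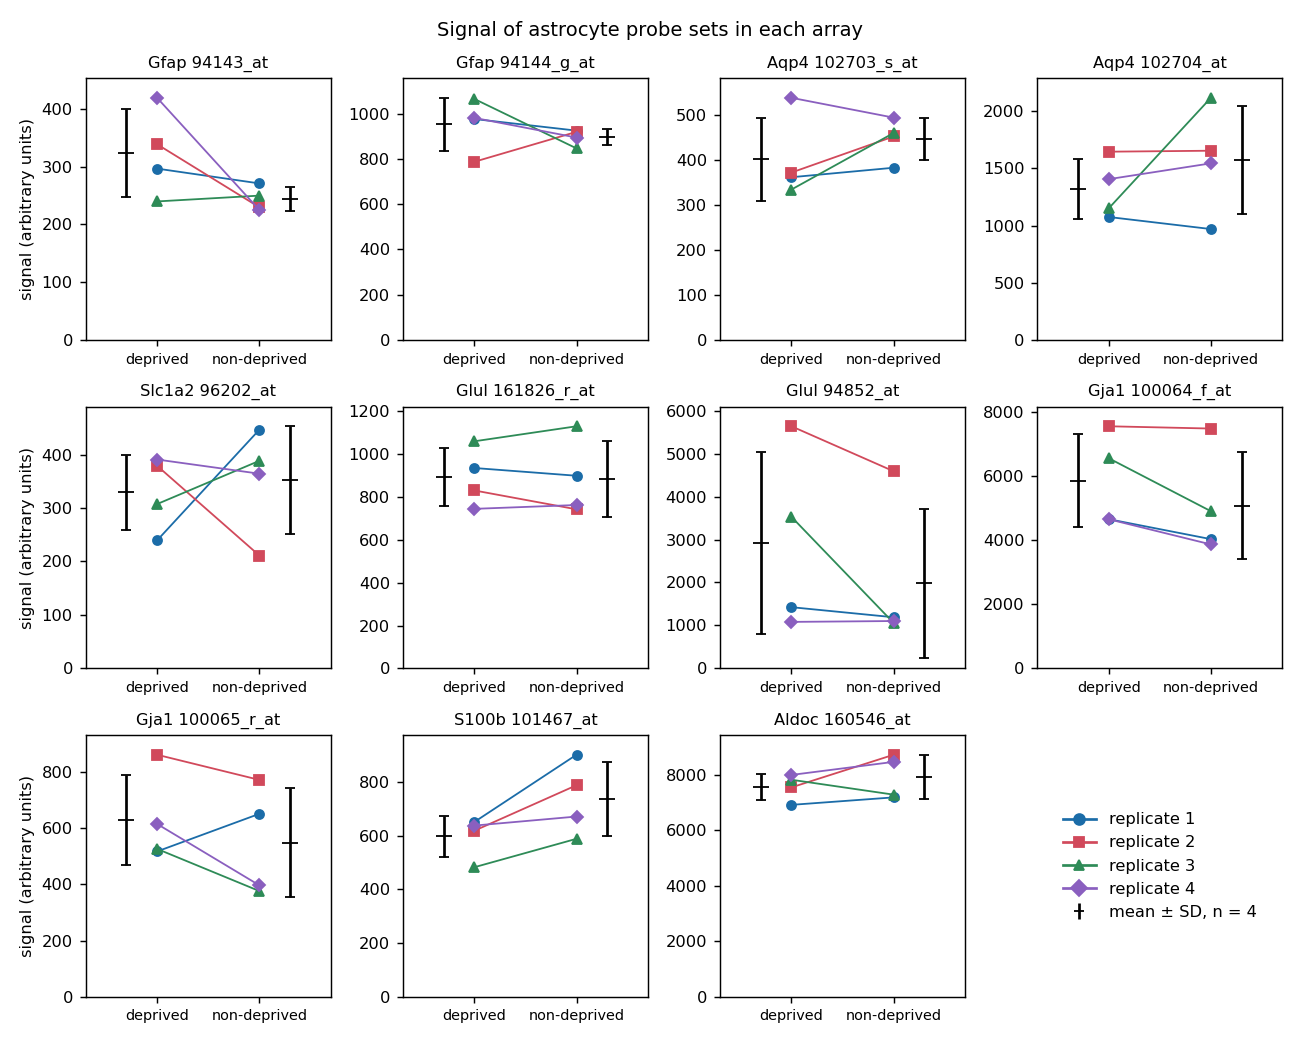
Signal (arbitrary units, linear axis from 0) of the 11 astrocyte probe sets in each of the 8 arrays. Lines join the deprived and non-deprived samples of the same number, and bars give the mean ± SD of 4 arrays. The groups overlap in every panel, and the widest spread is that of Glul 94852_at, between 1056 and 5639.

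Gfap was measured by a pair of probe sets, both annotated to the same transcript record. Probe set 94143_at had signals of 297, 339, 239.9 and 419.6 in deprived replicates 1 to 4, against 271, 229.8, 250.0 and 225 in non-deprived replicates 1 to 4. Of the deprived samples, 3 lay above all non-deprived ones and deprived replicate 3 lay among them. The mean was 324 ± 75.6 in deprived and 244 ± 21.0 in non-deprived cortex (SD, n = 4 each). The log2 difference was 0.36 ± 0.19 (SE) with a 95% interval of -0.05 to 0.78, or a fold of 0.964 to 1.72, in limma without the block, the smallest unadjusted p of the 11 (0.0817, limma adjusted p = 0.996).

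The other Gfap probe set, 94144_g_at, had 976, 787, 1065 and 981 in deprived replicates 1 to 4, against 924, 919, 846 and 894 in non-deprived replicates 1 to 4. Its difference was 0.08 ± 0.14 (SE), with an interval of -0.22 to 0.38, and its sign turned when each array was scaled to its median. Within the same-numbered samples the probe sets did not run together: deprived over non-deprived replicate 2 gave 0.53 for 94143_at and -0.22 for 94144_g_at, and replicate 3 gave -0.06 and 0.33. The 8 arrays of 94144_g_at spanned 1.35 times from lowest to highest, and 6.29% of all probe sets had a smaller SD over the arrays.

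For Aqp4, the water channel, both differences lay below 0. Probe set 102704_at had 1075, 1647, 1149.9 and 1406 in deprived replicates 1 to 4, against 969.8, 1655, 2118 and 1545 in non-deprived replicates 1 to 4. Non-deprived replicate 3 was the highest sample and non-deprived replicate 1 the lowest, so the deprived samples lay within the range of the non-deprived ones. The difference was -0.22 ± 0.22 (SE), with an interval of -0.70 to 0.27, and its sign turned without the samples of replicate 3. The other probe set, 102703_s_at, had 362, 372, 334 and 538 in deprived replicates 1 to 4, against 383, 452, 460.0 and 494 in non-deprived replicates 1 to 4. Its difference was -0.17 ± 0.18 (SE), and it was 0.05 in a model that included the actin 3' to 5' ratio, a measure of RNA integrity. In both probe sets 3 of 4 same-numbered differences lay below 0, but not in the same samples. The exception was replicate 1 for 102704_at and replicate 4 for 102703_s_at. Whether the probes of 102703_s_at match Aqp4 alone was not tested.

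Glutamate uptake and its conversion to glutamine are represented by Slc1a2 and Glul. Slc1a2 had 239, 379, 307 and 391 in deprived replicates 1 to 4, against 447, 211, 388 and 364 in non-deprived replicates 1 to 4. The deprived samples all lay within the range of the non-deprived ones. The same-numbered differences ran from -0.86 in replicate 1 to 0.80 in replicate 2. The difference between hemispheres was -0.07 ± 0.24 (SE), with an interval of -0.59 to 0.45, in limma without the block. Leaving out 1 array gave 0.07 (deprived replicate 1), 0.05 (non-deprived replicate 1) or -0.29 (non-deprived replicate 2), and including the Gapdh ratio in the model gave -0.40.

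Glul, the enzyme that turns glutamate into glutamine, had the most variable probe set of the 11. Probe set 94852_at had 1425, 5639, 3529 and 1082 in deprived replicates 1 to 4, against 1190.2, 4591, 1056 and 1102 in non-deprived replicates 1 to 4. The values were high in both samples numbered 2 and in deprived replicate 3 and lay between 1056 and 1425 in the other 5 arrays. The highest was 5.34 times the lowest, and 99.8% of all probe sets had a smaller SD of log2 values over the 8 arrays (1.03 for Glul, against a median of 0.27). The mean was 2919 ± 2112 in deprived and 1985 ± 1738 in non-deprived cortex (SD, n = 4 each), and the difference of 0.56 ± 0.55 (SE) had an interval of -0.63 to 1.75. With the sample number as a block the interval was 0.03 to 1.10 (limma, unadjusted p = 0.0415, adjusted p = 0.703). The samples of replicate 3 alone gave 1.73, whereas replicates 1, 2 and 4 gave 0.26, 0.30 and -0.03. Leaving out 1 array gave 0.15 (deprived replicate 2), 0.37 (deprived replicate 3) or 1.07 (non-deprived replicate 2), and including the actin ratio in the model gave -0.20. That ratio was 1.60, 1.91, 1.71 and 1.33 in deprived replicates 1 to 4, against 1.63, 1.43, 1.25 and 1.26 in non-deprived replicates 1 to 4.

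The other probe set of Glul, 161826_r_at, did not show this pattern. It had 936, 831, 1060.2 and 745 in deprived replicates 1 to 4, against 899, 743, 1130.5 and 763 in non-deprived replicates 1 to 4. Samples of the same number lay close together, the highest being those of replicate 3 and the lowest those of replicates 2 and 4. Its difference was 0.02 ± 0.17 (SE), with an interval of -0.35 to 0.40, and it turned negative in 8 of 26 alternative settings. The sample number took up 94.8% of the sum of squares of this probe set and the hemisphere 0.276%. The probe sets of Glul thus put different samples on top, and which of them follows the transcript was not tested. The suffix r marks sets for which the usual rules of probe choice were relaxed, and the annotation used gives no accession for its target.

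**Figure D2:**
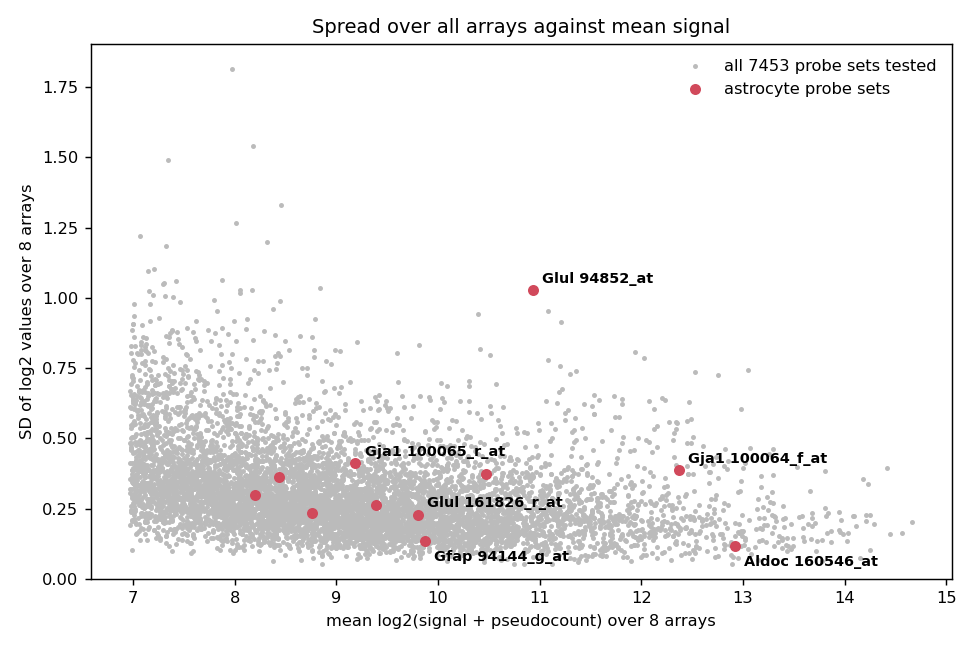
SD of log2 values over all 8 arrays against the mean log2(signal + pseudocount), for all 7453 probe sets tested (grey) and the 11 astrocyte probe sets (red, 6 of them named). Glul 94852_at stands at an SD of 1.03, while Aldoc 160546_at and Gfap 94144_g_at lie near the lower edge at 0.12 and 0.13.

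Gja1 encodes the connexin through which astrocytes couple to each other. Probe set 100064_f_at had 4654, 7552, 6557 and 4653 in deprived replicates 1 to 4, against 4031, 7481, 4903 and 3866 in non-deprived replicates 1 to 4. The same 3 arrays were highest as for Glul 94852_at, namely deprived replicates 2 and 3 and non-deprived replicate 2. That order was shared by 613 of the 7453 probe sets, or 8.22%, and by 2 of the 11 described here, and it was looked for after the values were seen. The mean was 5854 ± 1445 in deprived and 5070.3 ± 1670.5 in non-deprived cortex (SD, n = 4 each). The deprived sample was the higher one in 4 of 4 pairs, by 0.21, 0.01, 0.42 and 0.27 for replicates 1 to 4. This was the case for 1 of the 11 probe sets, where 8.92% of all probe sets were higher in 4 of 4 pairs. The log2 difference was 0.23 ± 0.23 (SE), with an interval of -0.27 to 0.72, and with the sample number as a block the interval was 0.00 to 0.45 (limma, unadjusted p = 0.0481, adjusted p = 0.703). Leaving out deprived replicate 2 gave 0.09 and leaving out non-deprived replicate 2 gave 0.43. Including the actin ratio in the model gave 0.03, and array weights gave 0.36.

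The other Gja1 probe set, 100065_r_at, had 517, 861, 526 and 615 in deprived replicates 1 to 4, against 651, 771, 376 and 396 in non-deprived replicates 1 to 4. Both samples numbered 2 were again the highest, and deprived replicate 3 was not. The difference was 0.23 ± 0.25 (SE), with 3 of 4 pairs above 0 and replicate 1 at -0.32, and including the actin ratio in the model gave -0.08. The suffix r of 100065_r_at again marks a set with relaxed rules of probe choice. The suffix f marks a set whose probes can match several members of a sequence family. Signal from related sequences therefore cannot be told apart from that of Gja1 in 100064_f_at.

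The sequences upstream of Gja1 and of Glul are shown because these genes had the probe sets with the same 3 highest arrays. They cover the 250 bases before the annotated start in RefSeq's GRCm38.p6 annotation, 5′ to 3′ on the strand of the gene: Gja1 at chr10:56377050-56377299 on the plus strand and Glul at chr1:153899679-153899928 on the plus strand. Capitals mark the AP-1 letters TGAGTCA in Gja1 and the NFI core letters GCCAA in Glul.
Gja1: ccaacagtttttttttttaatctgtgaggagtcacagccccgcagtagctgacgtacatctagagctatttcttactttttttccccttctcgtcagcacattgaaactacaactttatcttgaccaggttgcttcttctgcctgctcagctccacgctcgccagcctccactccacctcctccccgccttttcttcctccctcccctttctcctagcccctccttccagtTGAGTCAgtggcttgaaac
Glul: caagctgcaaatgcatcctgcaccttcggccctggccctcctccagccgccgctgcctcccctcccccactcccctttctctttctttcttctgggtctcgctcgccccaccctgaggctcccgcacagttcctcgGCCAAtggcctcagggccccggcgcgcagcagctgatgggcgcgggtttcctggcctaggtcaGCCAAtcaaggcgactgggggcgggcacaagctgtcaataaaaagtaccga
AP-1 is the dimer of Fos and Jun proteins, and NFI factors are known from astrocyte development. The motifs were searched on both strands in the 250-base windows of 32851 starts, except the CCAAT box. That box was counted by the letters CCAAT alone, so its percentage leaves out the other strand and is not directly comparable. AP-1 letters (TGAGTCA or TGACTCA) stood in 4.46% of all windows and, among 8 windows of these genes (2 of Aldoc, and 1 each of Gfap, Slc1a2, Slc1a3, Glul, Gja1 and S100b), in that of Gja1, 19 bases before the start. The NFI core TTGGC or GCCAA stood in 41.5% of all windows and in 4 of the 8, and in Glul it began 114 and 51 bases before the start, where it shares letters with the CCAAT box present in 33.8% of all windows. The full NFI site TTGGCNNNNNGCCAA stood in 0 of the 8, and the STAT letters TTCNNNGAA, found in 7.02% of all windows, in those of Slc1a3 and of 1 start of Aldoc. A match describes letters and shows neither binding nor a cause of any value.

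S100b, the calcium-binding protein, was lower in deprived cortex in 4 of 4 pairs. It had 650.5, 618, 482 and 637 in deprived replicates 1 to 4, against 901, 787, 588 and 671 in non-deprived replicates 1 to 4. The groups overlapped, since non-deprived replicate 3 lay below deprived replicates 1, 2 and 4. The mean was 597 ± 77.7 in deprived and 737 ± 137 in non-deprived cortex (SD, n = 4 each). The same-numbered differences were -0.46, -0.34, -0.28 and -0.07 for replicates 1 to 4, where 6.95% of all probe sets were lower in 4 of 4 pairs. The log2 difference was -0.29 ± 0.17 (SE), with an interval of -0.66 to 0.08, or a fold of 0.634 to 1.06. With the sample number as a block the interval was -0.56 to -0.02 (limma, unadjusted p = 0.0382, adjusted p = 0.703). S100b, Gja1 100064_f_at and Gfap 94143_at were the 3 probe sets that kept their sign in every setting tried, S100b between -0.39 and -0.19.

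Aldoc, the glycolytic enzyme, was the steadiest of the genes. It had 6919.9, 7550.1, 7825 and 7999 in deprived replicates 1 to 4, against 7189.6, 8727, 7288 and 8469 in non-deprived replicates 1 to 4. All arrays lay within 1.26 times of each other, and 3.85% of all probe sets had a smaller SD over the 8 arrays. This share, like those given for Gfap and Glul, counts probe sets of any signal. No ranking was made against probe sets of like signal. The difference was -0.06 ± 0.12 (SE), with an interval of -0.33 to 0.20, or a fold of 0.798 to 1.15.

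**Figure D3:**
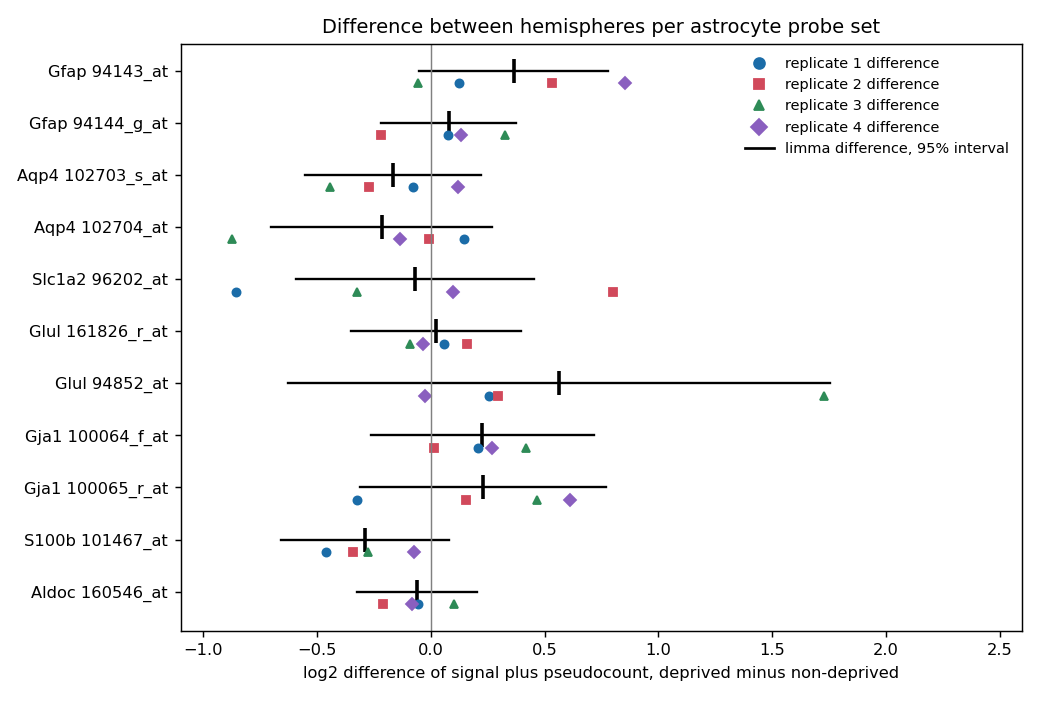
Log2 difference of signal plus pseudocount, deprived minus non-deprived, for each astrocyte probe set. Vertical ticks and lines give the limma difference with its 95% interval, and symbols below give the difference within each same-numbered pair of samples. Every interval is from limma without the sample number as a block and includes 0. All 4 symbols lie above 0 for Gja1 100064_f_at, and all 4 lie below 0 for S100b.

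The sum of squares of each probe set over the 8 arrays was divided into a part between sample numbers, a part between hemispheres and the rest. The number has 3 degrees of freedom and the hemisphere 1, so the number tends to have the larger part by construction and each part is read against that of all probe sets. The number took up a larger part than the hemisphere in 10 of the 11 astrocyte probe sets, the exception being Gfap 94143_at with 16.4% by number and 42.9% by hemisphere. The median part was 62.4% by number and 9.65% by hemisphere for the 11, and 60.4% by number and 7.02% by hemisphere for all 7453. Slc1a2 had 18.0% by number and 1.10% by hemisphere, so most of its spread followed neither. S100b had 57.8% by number and 34.1% by hemisphere, which left 8.11%.

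**Figure D4:**
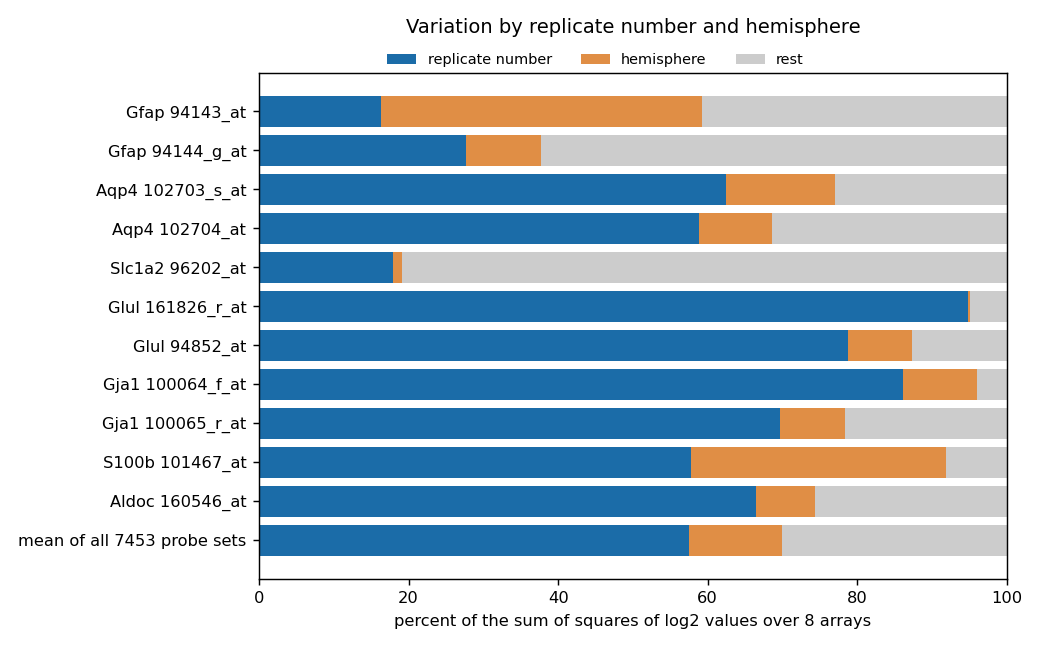
Percent of the sum of squares of log2 values over 8 arrays taken up by the sample number, by the hemisphere and by the rest, for each astrocyte probe set and as the mean over all 7453 probe sets tested (57.5%, 12.4% and 30.0%). The hemisphere's part is largest for Gfap 94143_at (42.9%) and S100b (34.1%).

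By a fixed rule, the genes most like the average of the astrocyte genes over the 8 arrays were also named. The brightest probe set of each of the 7 genes was scaled to unit variance and averaged, and 5668 other genes were correlated with that average. The highest Pearson correlations were 0.957 for Entr1, 0.936 for Eif5, 0.936 for Me1, 0.932 for Gpm6b and 0.918 for Cx3cl1 (n = 8 arrays, Spearman 0.833 to 0.976). They are a description of the 5 highest of many. The labels do not say whether arrays shared dissection or labelling. The average itself ran from -0.56 in deprived replicate 1 to 0.55 in non-deprived replicate 2. The 7 genes did not share an order of the arrays, so a gene like their average need not be like each of them.

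Other genes of astrocytes had differences on both sides of 0. Of 46 further astrocyte genes, 27 were measured, 14 below 0 and 13 above, with a median of -0.02, against 0.02 for the 5675 genes measured in all, of which 46.0% lay below 0. None of them passed the adjusted threshold in limma, and 1 of the 27 had an unadjusted p under 0.05, where all probe sets had 2.67%, so the count is near that of all probe sets. That gene was Fabp7, a fatty acid binding protein of immature astrocytes and radial glia. It had 821, 548, 622 and 1389 in deprived replicates 1 to 4, against 1174, 863, 1337 and 1594 in non-deprived replicates 1 to 4. The deprived sample was the lower one in 4 of 4 pairs, as in 6.95% of all probe sets, although the groups overlapped. The difference was -0.61 ± 0.27 (SE, limma unadjusted p = 0.0457, adjusted p = 0.996). With the sample number as a block, Fabp7 had a limma unadjusted p of 0.00206 and an adjusted p of 0.586. In that fit 7.03% of all probe sets lay under an unadjusted 0.05. Itih3 had 0.27 ± 0.17, and Gpr37l1, a receptor enriched in astrocytes, -0.20 ± 0.14 (SE).

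Of 33 reactive astrocyte genes, 26 were on the array and 12 passed the filter, with 7 above and 5 below 0 and a median of 0.02. Vim, an intermediate filament that reactive astrocytes share with immature ones, had 136, 233, 132 and 164 in deprived replicates 1 to 4, against 123, 103, 131 and 87.0 in non-deprived replicates 1 to 4. Its groups did not overlap, which held for 1 of these 12 genes and 2.05% of all probe sets, although deprived replicate 3 and non-deprived replicate 3 nearly touched and the non-deprived mean of 111 lay at the filter signal. The difference was 0.51 ± 0.24 (SE; limma adjusted p = 0.996). S1pr3, a sphingosine phosphate receptor, had 0.32 ± 0.16 with 4 of 4 pairs above 0, as in 8.92% of all probe sets. Serpina3n, a protease inhibitor and a marked reactive gene after injury, had -0.28 ± 0.18 with 3 of 4 pairs below 0.

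Lists that share the roles of these genes gave no call in limma either, with 0 passing in each direction. Of 16 genes of glutamate and glutamine handling, 7 were measured, 3 below 0, with a median of 0.00, and the first 3 by p were Slc1a4 (0.11), Slc1a1, the neuronal glutamate transporter (-0.10), and Slc38a2 (0.04). Of 13 gap junction genes, 6 were measured, 1 below 0, with a median of 0.15. That median was 0.04 without deprived replicate 3, 0.07 without deprived replicate 2 and 0.26 without deprived replicate 1, and it was 0.05 with either RNA quality ratio in the model. Gjb2, connexin 26, had 287, 327, 276 and 329.7 in deprived replicates 1 to 4, against 205, 326, 197 and 216 in non-deprived replicates 1 to 4. It had 0.37 ± 0.19 (SE) and was higher in 4 of 4 pairs, as in 8.92% of all probe sets. Tjp1, a junction scaffold, had 0.22. Gjb5 had 0.21, and its non-deprived mean of 113 lay near the filter signal of about 110. Gjb6, connexin 30, which is the other main astrocyte connexin, averaged 539.6 ± 64.9 in deprived and 536 ± 22.6 in non-deprived cortex (SD, n = 4 each), with a difference of 0.00 ± 0.14 (SE).

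Of 14 genes of water and potassium buffering, 7 were measured, 3 below 0, with a median of 0.00. They were led by the potassium channel Kcnk1 (-0.35), Dmd (0.31) and the chloride cotransporter Slc12a2 (0.18). The non-deprived mean of Dmd, 106, lay below the filter signal of about 110, and 2 of its pairs lay above 0 and 2 below. Of 23 genes of glycolysis and lactate transport, 15 were measured and 12 lay below 0, with a median of -0.09. Pgk1 had 4605, 3126, 4192 and 5299 in deprived replicates 1 to 4, against 5008, 5089, 4805 and 6200.4 in non-deprived replicates 1 to 4, a difference of -0.31 ± 0.17 (SE) with 4 of 4 pairs below 0. Ldhb had -0.57 ± 0.32 and the glucose transporter Slc2a1 -0.38 ± 0.23 (SE). In both, 4 of 4 pairs also lay below 0, as in 6.95% of all probe sets. With the sample number as a block, the limma unadjusted p was 0.0231 for Pgk1, 0.00900 for Ldhb and 0.0106 for Slc2a1. Each had an adjusted p of 0.703, and 7.03% of all probe sets lay under an unadjusted 0.05 in that fit. Aldoa, another aldolase, had 0.02. Of the 15 S100 genes and their partners, 7 were measured, 6 below 0, with a median of -0.12, led by S100pbp (0.39), S100a6 (-0.53) and S100a1 (-0.16). S100a6 and S100a1 were lower in 4 of 4 pairs, as in 6.95% of all probe sets. S100pbp was higher in 3 of 4 pairs, and the remaining genes of this list were lower in 2 or 3. With the sample number as a block, limma gave S100a6 an unadjusted p of 0.0207 (adjusted p = 0.703). In that fit S100a1 had an unadjusted p of 0.236 (adjusted p = 0.759). Including the actin ratio in the model gave this list a median of 0.12. Of 12 intermediate filament genes and their linkers, 9 were measured, 5 below 0, with a median of -0.05, and after Vim came Lmnb1 (0.30) and Lmna (-0.16).

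**Figure D5:**
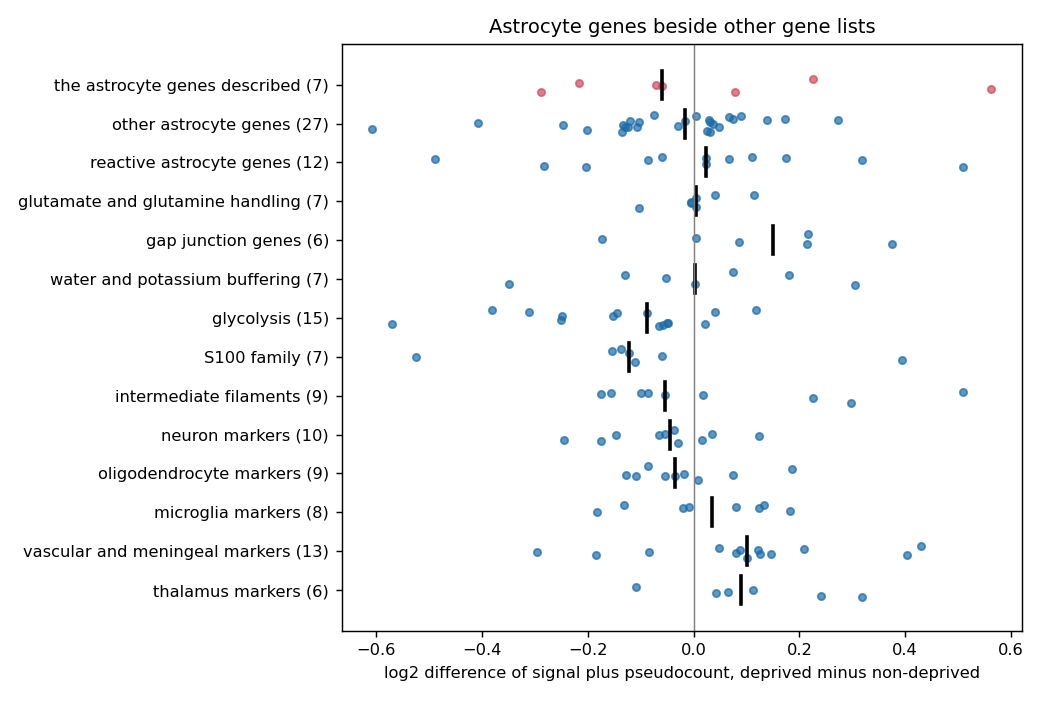
Log2 difference of signal plus pseudocount, deprived minus non-deprived, for each measured gene (brightest probe set) of the astrocyte genes described (red) and of the other lists (blue), with the number of genes in parentheses. Black bars are medians, which run from -0.12 for the S100 family to 0.15 for gap junction genes.

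Markers of the other cell types in the tissue are given beside these values, and their part in them was not tested. Neuron markers had a median of -0.05 (10 measured of 14, 7 below 0), with Tubb3 at -0.25, Stmn2 at -0.15 and Nefm at -0.18. Oligodendrocyte markers had -0.04 (9 of 15, 6 below 0), with Mobp at 0.19, Mog at -0.13 and Mag at -0.11. Microglia markers had 0.04 (8 of 14, 4 below 0), with C1qc at -0.18, Ctss at -0.13 and Cx3cr1 at 0.18. Vascular and meningeal markers had 0.10 (13 of 17, 3 below 0). Igf2, which the meninges and vessels express, had the smallest p there (limma unadjusted p = 0.0273, adjusted p = 0.996). It was 1 of 13 under an unadjusted 0.05, where all probe sets had 2.67%. Igf2 had 0.43 ± 0.17 (SE) and was higher in 4 of 4 pairs, as in 8.92% of all probe sets. With the sample number as a block it had a limma unadjusted p of 0.00435 and an adjusted p of 0.638. In that fit 7.03% of all probe sets lay under an unadjusted 0.05. After Igf2 came Dcn at 0.40 and Cldn5 at -0.30. Whether the genes listed as thalamus markers were expressed in the cortex itself was not tested. They had a median of 0.09 (6 of 9, 1 below 0), with Tcf7l2 at 0.32, Calb2 at 0.24 and Lef1 at 0.11. That median was -0.06 with the Gapdh ratio in the model, -0.01 without the samples of replicate 2 and 0.19 without deprived replicate 1. Of the choroid plexus markers, 3 were on the array and 0 passed the filter. In limma 0 genes of these lists passed. Over 27 alternative settings the median kept its sign in 3 of the 13 lists with measured genes, namely gap junction genes, glycolysis and neuron markers.

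The arrays were of similar brightness, with median signals from 183 to 209. The deprived array nevertheless had the higher median in each same-numbered pair. The medians were 197.6, 203.85, 208.9 and 190.75 in deprived replicates 1 to 4, against 195.6, 184.35, 193.8 and 182.9 in non-deprived replicates 1 to 4. Any pair of arrays had a correlation of 0.948 to 0.975 across probe sets, which are not independent replicates. The 10th percentile of signal was 17.2 ± 2.68 in deprived and 13.5 ± 0.718 in non-deprived arrays (SD, n = 4 each, exact two-sided permutation p = 0.0286, the smallest possible without pairing). It was higher in deprived arrays in 4 of 4 pairs, and with pairing the exact permutation p was 0.125, the smallest that 4 pairs allow. The actin 3' to 5' ratio was 1.64 ± 0.239 in deprived and 1.39 ± 0.179 in non-deprived arrays (exact permutation p = 0.171, n = 4 each), and the Gapdh ratio was 0.842 ± 0.0345 in deprived and 0.898 ± 0.0543 in non-deprived arrays (exact permutation p = 0.143, n = 4 each). The actin ratio was higher in deprived arrays in 3 of 4 pairs (exact paired permutation p = 0.25), and the Gapdh ratio was lower in 4 of 4 pairs (exact paired permutation p = 0.125).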

How the data were processed

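Total RNA of visual cortex was hybridised as biotin-labelled cRNA to 1-colour short-oligonucleotide arrays, 4 per group. The deposited values are a linear signal intensity per probe set, made by the authors with MAS5 per the submitters' processing notes; no source used here gives its version or settings. Each array has a 2% trimmed mean of about 500 (499.7). There were 12488 probe sets and 0 unused sample columns. The number of arrays limits the precision.

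After scaling to a common 2% trimmed mean and without 66 control probe sets, signals were put on the scale of log2(signal + 15.3). The added value is the 10th percentile of signal, and it makes differences of dim genes look smaller than they are. Probe sets with a mean log2 above the 40th percentile were kept, 7453 in all. Genes were named from the 10833 probe sets with 1 symbol in the platform annotation (396 had several, 1193 none); symbols of 10817 were updated through Entrez identifiers to GRCm38.p6. In the lists, each of 5675 genes was represented by its brightest probe set. The hemispheres were tested in limma 3.58.1 under R 4.3.3 (lmFit, eBayes with an intensity trend, two-sided, Benjamini-Hochberg adjustment over all kept probe sets, threshold 0.05). Measures with 1 value per array had an exact permutation test, two-sided, with 70 assignments (scipy 1.17.1), and sign flips over the 16 assignments within pairs were added after the data were seen. The code was tested on simulated data. Figures used matplotlib 3.10.9 in Python 3.11.15.

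The labels do not say what a sample number marks. Once group means were subtracted, same-numbered samples had correlations of 0.158 to 0.422 and the other pairs across hemispheres -0.272 to 0.123, so numbers were taken as pairs and a block on the number was an alternative. The genes and lists were chosen with earlier results of these data known. Named were all probe sets of the astrocyte genes, the 3 genes of each other list with the smallest p, and the 5 genes most like the average of the astrocyte genes. Gjb6 and Aldoa were named after their values were seen. Alternatives were other scalings, pseudocounts and filters, no intensity trend, array weights, the number as a fixed or random block, the actin or Gapdh ratio as a covariate, the mean of all kept probe sets of a gene in the lists, and leaving out each sample or pair.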

Additional observations from a re-analysis of the deposited data

Results flagged for a closer look

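Of 28 groups of 4 values examined, the 11 probe sets and 3 array measures in each hemisphere, 1 held a sample far from the other 3, and chance flags about 1 in 20 groups (1.4 here). It was Glul 94852_at in non-deprived cortex, where replicate 2 had a signal of 4591 and the others 1056 to 1190.2. The gap took up 0.919 of the range of that group on the log2 scale. Deprived replicate 2 was the highest of its group for the same probe set, at 5639, and Glul 161826_r_at was at 743 in non-deprived replicate 2, the lowest of its group.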

How the results depend on the processing

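In the 26 alternative settings limma called 0 of all probe sets, 0 of the 11 astrocyte probe sets and 0 genes of the other lists, and the smallest adjusted p of the 11 was 0.690. With the mean of all kept probe sets of a gene, limma called 0 of 127 list genes, and 3 had an unadjusted p under 0.05. With the replicate block the count of the 11 at an unadjusted p under 0.05 was 3 as a fixed and 2 as a random block, against 0 without it, and the block changed no call. Without the block, omitting non-deprived replicate 2 also gave a count of 2, and omitting deprived replicate 3, non-deprived replicate 1, non-deprived replicate 3 or the pair of replicate 3 gave 1. Of the 11, 3 kept their sign in all settings. Scaling to the median of each array moved the median of all probe sets from 0.02 to -0.06 and gave -0.00242 for Gfap 94144_g_at and -0.0585 for Glul 161826_r_at. With the actin ratio in the model Aqp4 102703_s_at had 0.0520, Glul 161826_r_at -0.0101, Glul 94852_at -0.20 and Gja1 100065_r_at -0.0784. With the Gapdh ratio Glul 161826_r_at had -0.16 and Aldoc 0.0272, and Slc1a2 had -0.40. Leaving out single samples or pairs reversed 4 probe sets, whose ranges were -0.36 to 0.19 for Slc1a2, -0.0629 to 0.15 for Glul 161826_r_at, -0.00396 to 0.18 for Gfap 94144_g_at and -0.43 to 0.00180 for Aqp4 102704_at. The causes of these reversals were not tested. Single samples left out gave a difference in the 10th percentile of signal of 2.43 to 4.46 with exact permutation p = 0.0571, which is the smallest p that 3 against 4 allows. With same-numbered samples as pairs, a choice made after seeing the data, that difference of 3.73 had an exact sign-flip permutation p = 0.125, the smallest that 4 pairs allow. The filter at the 60th percentile removed Gfap 94143_at.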
